A study of Mus musculus with 4 samples.

Results

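Osteogenic regulators and bone matrix genes were examined as a set of 10 named genes, taken by symbol from the 54532 gene IDs counted in every library. The set holds 5 transcription factors of the bone lineage (Runx2, Sp7, Dlx5, Msx1 and Msx2) and 5 genes for secreted or surface proteins of bone matrix (Spp1, Ibsp, Alpl, Sparc and Postn). The data are bulk RNA-seq counts from 4 libraries. All were made from C3H10T1/2, an established mouse line labelled as mesenchymal stem cells. The WT library came from unedited cells. The PRDX1MT library came from cells with a CRISPR edit of the splice acceptor of Prdx1 intron 5, and its genotype field reads PRDX1-KO. The remaining 2 libraries came from clone 1 and clone 5 of a DNMT3A/B double knockout (DKO). The labels name no Prdx1 edit for the DKO clones. All cells were grown in DMEM with fetal bovine serum, and the labels name no osteogenic agent for any library. The series' design text gives its purpose as the mechanism of silencing of a gene outside this set, so bone genes were not its stated question.

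Runx2 is the DNA-binding factor that commits mesenchymal cells to the osteoblast lineage, and Sp7 (osterix) acts downstream of it in the step to a matrix-forming osteoblast. Dlx5, Msx1 and Msx2 are homeobox factors of limb, skull and tooth development that respond to BMP signals, Dlx5 as an activator and the Msx proteins mainly as repressors of transcription. Sparc (osteonectin) binds collagen and calcium, Postn (periostin) is a collagen-associated protein of periosteum and tendon, and Spp1 (osteopontin) and Ibsp (bone sialoprotein) are acidic phosphoproteins that bind integrins and mineral. Alpl, tissue-nonspecific alkaline phosphatase, removes the mineralisation inhibitor pyrophosphate. C3H10T1/2 cells are used as a multipotent line that can be driven towards bone, cartilage, fat or muscle.

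DNMT3A and DNMT3B are the enzymes that set new DNA methylation at CpG dinucleotides, so the CpG content of the members' promoters is shown first. No methylation was measured in these libraries. RefSeq start-site windows on GRCm38.p6 (250 bases before to 50 after each start) covered 8 of the 10 members in 11 windows, and Sp7 and Dlx5 were not in the table. The 250 bases upstream of the start are printed for 4 members that contrast in CpG content, 5′ to 3′ on the gene's strand, with each CpG in capitals. The Msx1 stretch is chr5:37824586-37824835 on the minus strand, and that of Alpl is chr4:137796385-137796634 on the minus strand. The Spp1 stretch is chr5:104434861-104435110 on the plus strand, and that of Postn is chr3:54360857-54361106 on the plus strand.
Msx1: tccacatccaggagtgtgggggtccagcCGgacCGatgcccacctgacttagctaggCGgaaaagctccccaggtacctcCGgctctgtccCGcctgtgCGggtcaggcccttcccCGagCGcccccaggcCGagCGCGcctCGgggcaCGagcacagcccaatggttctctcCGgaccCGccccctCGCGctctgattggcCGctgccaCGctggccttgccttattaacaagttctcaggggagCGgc
Alpl: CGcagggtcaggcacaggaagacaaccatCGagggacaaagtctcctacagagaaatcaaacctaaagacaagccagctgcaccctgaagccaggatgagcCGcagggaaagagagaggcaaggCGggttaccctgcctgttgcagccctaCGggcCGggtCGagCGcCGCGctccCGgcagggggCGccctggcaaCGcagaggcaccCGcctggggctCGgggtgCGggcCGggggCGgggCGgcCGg
Spp1: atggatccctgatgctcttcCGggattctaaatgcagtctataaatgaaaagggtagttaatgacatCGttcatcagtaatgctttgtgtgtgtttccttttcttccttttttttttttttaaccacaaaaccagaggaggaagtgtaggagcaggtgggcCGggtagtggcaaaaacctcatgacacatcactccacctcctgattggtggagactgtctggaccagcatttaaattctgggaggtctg
Postn: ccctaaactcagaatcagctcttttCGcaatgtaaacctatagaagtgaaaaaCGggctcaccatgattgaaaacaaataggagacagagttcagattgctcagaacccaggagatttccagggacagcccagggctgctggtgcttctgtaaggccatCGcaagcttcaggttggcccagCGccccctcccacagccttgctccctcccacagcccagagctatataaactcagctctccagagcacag
The Msx1 and Alpl stretches hold 20 CpGs each, whereas the Spp1 stretch holds 3 and the Postn stretch 4.

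The ratio of observed to expected CpG (the CpG count times the window length, divided by the product of the C and G counts) split the members the same way. Over all 300 bases it was 0.794 at Msx1, 0.789 at Msx2 and 0.720 at the upstream Alpl start, against a median of 0.384 over 32841 mouse windows. It was 0.143 at Runx2, 0.174 at Sparc, 0.195 at the Spp1 start printed above and 0.311 at Ibsp. Postn had 0.362 and 0.242 at its 2 starts, Spp1 0.306 at its other start, and the inner Alpl start 0.181. The homeobox genes Msx1 and Msx2 and the upstream Alpl start thus had CpG-rich windows, and the windows of the other members in the table lay below the median. The Sparc start lay 3103 bases and the Msx2 start 294 bases inside the GENCODE gene start. Starts of Runx2 or other members that are not in the table were not examined.

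**Figure D1:**
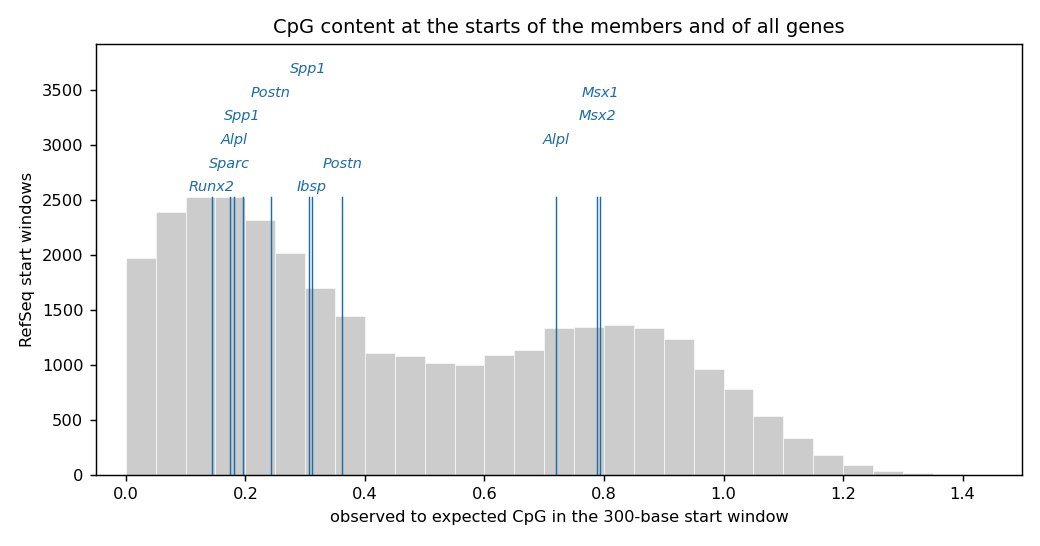
Observed to expected CpG ratio in the 300-base RefSeq start-site windows of 8 members (blue lines, 1 per start) over the distribution for 32841 mouse windows (grey bars, number of windows). Msx1, Msx2 and 1 Alpl start lie near 0.7 to 0.8, right of the median of 0.384, and the other member windows lie to its left.

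Short motifs for 5 classes of factor were searched on both strands of these windows, and a match is a description of letters only. ACCACA, the core bound by RUNX factors, occurred 3 times in the Runx2 window, once in the printed Spp1 window and once in the Sparc window, and 16.8% of all windows held it. GGGCGG, the GC box of SP-family factors, occurred once at Msx1, once at Msx2 and 3 times at the upstream Alpl start, where matches overlap each other, and 35.7% of all windows held it. TATAAA was present at Spp1, Ibsp, the inner Alpl start and the Postn start printed above, and in 13.6% of all windows. TAATTA, a homeobox core, was present at Msx2 and at the other Spp1 start, and in 5.29% of all windows. TGAGTCA, the AP-1 element, had no match in the 11 member windows and was present in 5.20% of all windows.

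The libraries held between 27570136 and 37685798 counts, and 25191 to 26537 genes had at least 1 read. A count of 0 allows up to 0.0729 CPM (a gene's reads per 1000000 scaled reads of the library) in WT and 0.121 CPM in PRDX1MT, the bounds of the range. Prdx1 stood at 399 CPM in WT, 31.2 CPM in PRDX1MT, and 392 and 332 CPM in DKO clones 1 and 5. Dnmt3a RNA was 43.7 CPM in WT, 80.9 CPM in PRDX1MT, and 31.3 and 25.9 CPM in the clones, and Dnmt3b RNA was 3.28, 3.74, 2.83 and 2.03 CPM in the same order. RNA of both edited genes was thus still counted in the DKO clones, which does not show whether protein was made. Of 12 mesenchymal stromal markers, 10 were at 1 CPM or more in all 4 libraries. Thy1, which often defines such cells, fell short of that level in PRDX1MT and clone 1, at 29.0 CPM in WT, 0.884 in PRDX1MT, and 0.757 and 1.38 in the clones. Nt5e fell short in every library, at 0.802 CPM in WT, 0.764 in PRDX1MT, and 0.421 and 0.581 in the clones. In bulk RNA, fewer cells expressing a gene and less RNA per cell cannot be told apart.

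Levels are given in CPM after TMM scaling, a factor per library that sets the bulk of genes level. WT and PRDX1MT are 1 library each, so their values carry no replicate error, and intervals quoted for them cover counting error only. The DKO group is 2 clones, given as mean ± SD. Nothing in the labels says that the 2 clones stand for more than separate isolates. The spread between these clones gives the only residual degree of freedom of the tests. EdgeR weighs it together with a spread shared over all genes (6.54 prior degrees of freedom). The tests also assume that WT and PRDX1MT vary as the clones do, which single libraries cannot show. Single libraries were compared by a size rule with no p-value. It asked for at least 100 reads over the pair, a ratio of at least 2-fold, and a 95% interval from counting error (exact conditional binomial) that leaves out no change.

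**Figure D2:**
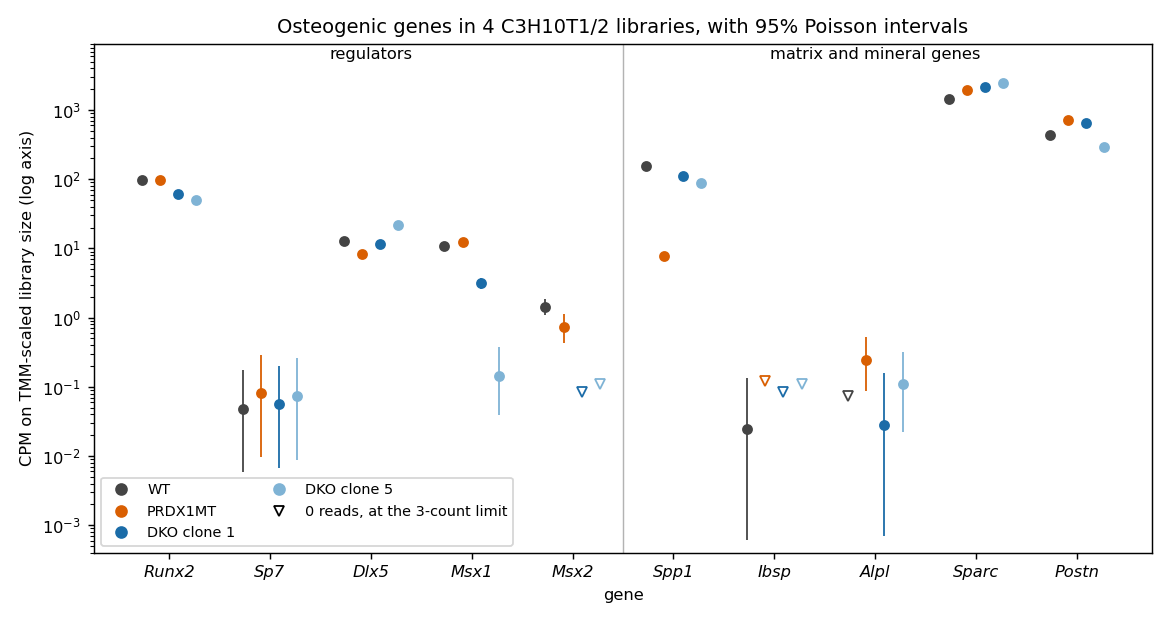
CPM of each member in the WT, PRDX1MT, DKO clone 1 and DKO clone 5 libraries on a log axis, with 95% exact Poisson intervals and open triangles at the 3-count limit for libraries with 0 reads. Sparc lies above 1000 CPM in every library, Spp1 is at 156 CPM in WT and 7.68 CPM in PRDX1MT, and Sp7, Ibsp and Alpl lie near the floor.

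Runx2 (chr17:44495987-44814797, minus strand, mm10) had the highest level of the 5 regulators per exon length in WT, PRDX1MT and clone 1. Its level was 96.4 CPM in WT and 98.6 CPM in PRDX1MT, and 61.1 and 50.2 CPM in DKO clones 1 and 5 (55.6 ± 7.74, SD, n = 2). Both clones were below both other libraries, which themselves were close. Clone 1 was 1.58-fold and clone 5 1.92-fold below WT, under the 2-fold limit of the size rule. In edgeR's quasi-likelihood test the log2 ratio of DKO to WT was -0.79 (SE 0.435), with a Benjamini-Hochberg adjusted p of 1.00. Runx2 was thus lower in both clones by an amount that the test could not separate from its estimate of the spread, which is partly shared over all genes. The antisense gene Runx2os1 shares 519 exon bases with Runx2, or 5.87% of its exon length, and had 38, 13, 24 and 23 reads against 3965, 2452, 2179 and 1381 for Runx2 in WT, PRDX1MT, clone 1 and clone 5.

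Sp7 (chr15:102356606-102367182, minus strand) had 2 reads in each of the 4 libraries. That is below the floor of 3 counts, so no ratio is given. The osteoblast factor downstream of Runx2 was therefore at the limit of detection in cells that held Runx2 RNA throughout.

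Dlx5 (chr6:6877805-6882085, minus strand) stood at 12.9 CPM in WT and 8.40 CPM in PRDX1MT, and at 11.5 and 22.2 CPM in clones 1 and 5 (16.8 ± 7.56, SD, n = 2). The clones lay on either side of WT, and both were above PRDX1MT. PRDX1MT had 0.650 times the WT level, clone 1 0.887 times and clone 5 1.71 times, and none of these ratios passed the size rule. Clone 5 was 2.64-fold above PRDX1MT, which passed it. The edgeR log2 ratio was 0.38 (SE 0.595) for DKO to WT and 1.00 (SE 0.616) for DKO to PRDX1MT, each with a Benjamini-Hochberg adjusted p of 1.00.

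Msx1 (chr5:37820485-37824583, minus strand) was the regulator with the widest range among those with 100 reads or more. It had 10.9 CPM in WT (447 reads) and 12.4 CPM in PRDX1MT (308 reads), against 3.14 CPM in clone 1 (112 reads) and 0.145 CPM in clone 5 (4 reads). Both clones were below both other libraries, and they also stood far from each other. Clone 1 was 3.46-fold below WT (95% interval 2.81 to 4.29), and clone 5 was 74.8-fold below it (29.0 to 276). Clone 5 was 21.6-fold below clone 1 (8.21 to 80.7), and all these ratios passed the size rule. The spread between clones entered the edgeR test, where the log2 ratio to WT was -2.71 (SE 1.20) with a Benjamini-Hochberg adjusted p of 1.00. Against PRDX1MT the edgeR log2 ratio was -2.90 (SE 1.21), again with an adjusted p of 1.00.

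Msx2 (chr13:53466884-53473074, minus strand) had 59 reads in WT (1.43 CPM), 18 in PRDX1MT (0.724 CPM) and 0 in both clones. It was the only member with reads above the floor in WT and PRDX1MT and none in either clone. With the floor of 3 counts put in for the DKO group, Msx2 would be 30.2-fold lower than in WT and 15.2-fold lower than in PRDX1MT. These values leave out the counting error of the WT and PRDX1MT reads. With that error included, the upper 95% counting limit of the DKO level was 0.0420 times the WT level and 0.0895 times the PRDX1MT level. The Benjamini-Hochberg adjusted p from edgeR was 0.139 against WT and 0.324 against PRDX1MT. DESeq2 gave an adjusted p of 0.0467 against WT, so this call depends on the tool. Among the 8 members with a start-site window, Msx1 and Msx2 had the highest CpG ratio, followed by the upstream Alpl start at 0.720. Dlx5, also a homeobox gene, had no window. Msx1 and Msx2 are 2 genes of 1 family, and whether their promoters' CpG content had a part in their levels was not tested.

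Spp1 (chr5:104435118-104441050, plus strand), the gene for osteopontin, had 156 CPM in WT (6424 reads), 7.68 CPM in PRDX1MT (191 reads), and 112 and 87.9 CPM in clones 1 and 5 (3990 and 2421 reads, 99.9 ± 16.9 CPM, SD, n = 2). PRDX1MT stood alone at the low end, and the clones lay between it and WT. PRDX1MT was 20.3-fold below WT (95% interval 17.6 to 23.6), the only member below WT there by the size rule. The clones were 1.40-fold and 1.78-fold below WT, under its limit, and 14.6-fold and 11.5-fold above PRDX1MT.

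In the edgeR test Spp1 had the smallest p of the members in the comparison of DKO with PRDX1MT. The log2 ratio was 3.70 (SE 0.559) with an edgeR Benjamini-Hochberg adjusted p of 0.0672, above the 0.05 threshold. DESeq2 gave an adjusted p of 2.78e-07. Against WT the edgeR log2 ratio was -0.64 (SE 0.444) with an adjusted p of 1.00. Gm42793, an annotated transcript on the same strand, shares 309 exon bases with Spp1, 18.75% of its exon length, and had 14, 2, 18 and 6 reads in WT, PRDX1MT, clone 1 and clone 5.

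Spp1 and Ibsp belong to a cluster of related phosphoprotein genes on chromosome 5, the SIBLING family, with the Sparc relative Sparcl1 at its far end. Sparcl1 lies 321 kb upstream of the Spp1 start. It had 129 reads in WT, 5 in PRDX1MT, and 197 and 235 in the clones, which put PRDX1MT 15.6-fold below WT (95% interval 6.51 to 48.8). Dmp1, an osteocyte matrix gene 232 kb upstream, had 48, 0, 12 and 15 reads. By the 95% counting interval its level in PRDX1MT was at least 7.57-fold below WT. Dspp and Mepe had 0 reads in every library. Pkd2, a gene of another family 24.3 kb downstream, was at 210 CPM in WT, 148 CPM in PRDX1MT, and 201 and 163 CPM in the clones. The genes of the stretch that were above the floor in WT were lowest in PRDX1MT. Of these, Sparcl1 and Spp1 passed the size rule as lower than in WT, as did 7.57% of all genes with enough reads. Dmp1 had too few reads for the rule. Pkd2 was 1.42-fold below WT, did not pass, and was close to clone 5. The share of all genes that were lowest in PRDX1MT was not counted. The edgeR adjusted p (Benjamini-Hochberg) of Sparcl1 in DKO against PRDX1MT was 0.129, and a shared cause was not tested.

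**Figure D3:**
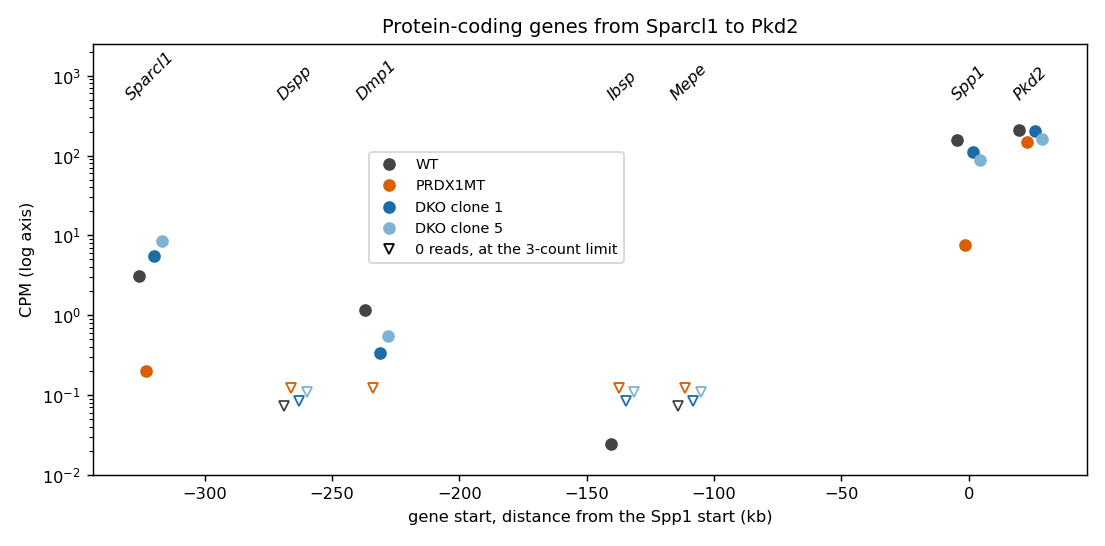
CPM on a log axis of Sparcl1, Dspp, Dmp1, Ibsp, Mepe, Spp1 and Pkd2 by distance of each start from the Spp1 start in kb, 1 colour per library. Points of 1 gene are set apart sideways by a few kb so that all 4 libraries can be seen, and the PRDX1MT points of Sparcl1, Dmp1 and Spp1 lie below the others.

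Ibsp (chr5:104299171-104311469, plus strand) had 1 read in WT and 0 in the other 3 libraries. Alpl (chr4:137741733-137796384, minus strand) had 0 reads in WT, 6 in PRDX1MT, 1 in clone 1 and 3 in clone 5. Both are late or functional markers of mineralising osteoblasts, and together with Sp7 they were at or near the floor of 3 counts. These 3 members did not pass the filter on low counts and were not tested. At this depth their levels could not be told from 0 or from each other, except that Alpl in PRDX1MT had 6 reads.

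Sparc (chr11:55394500-55423183, minus strand) was the most abundant member. It had 1442 CPM in WT, 1924 CPM in PRDX1MT, and 2133 and 2452 CPM in clones 1 and 5 (2293 ± 226, SD, n = 2). All 3 edited libraries were above WT, by 1.33-fold, 1.48-fold and 1.70-fold, all under the limit of the size rule. The edgeR log2 ratio of DKO to WT was 0.67 (SE 0.609) with a Benjamini-Hochberg adjusted p of 1.00.

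Postn (chr3:54361109-54391037, plus strand) had 430 CPM in WT, 728 CPM in PRDX1MT, and 643 and 289 CPM in clones 1 and 5 (466 ± 250, SD, n = 2). The clones lay on either side of WT here too. Clone 5 was 2.22-fold below clone 1 (95% interval 2.17 to 2.28) and 2.52-fold below PRDX1MT, and both ratios passed the size rule. The DKO mean is therefore a poor summary of this gene, and the edgeR log2 ratio to WT was 0.12 (SE 0.625) with a Benjamini-Hochberg adjusted p of 1.00.

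Levels of different genes were compared per exon length (RPKM, CPM per kilobase of exon). Sparc was first in every library, at 381 RPKM in WT and 508, 563 and 647 RPKM in PRDX1MT, clone 1 and clone 5. It ranked 34, 23, 29 and 16 in the same order among 15357, 15232, 15055 and 14809 protein-coding genes with a read. Spp1 followed in WT at 94.7 RPKM, ahead of Postn at 49.4, Runx2 at 10.9, Dlx5 at 5.71, Msx1 at 3.51 and Msx2 at 0.437 RPKM. In PRDX1MT Postn was second at 83.7 RPKM and Spp1 came after Runx2 at 4.66 RPKM. Postn led Spp1 in clone 1 (73.9 and 67.9 RPKM) and trailed it in clone 5 (33.3 and 53.4 RPKM), so the order of these neighbours does not hold over the clones. Dlx5 and Runx2 likewise changed places, with 5.07 and 6.91 RPKM in clone 1 and 9.79 and 5.68 RPKM in clone 5. Msx1 was at 1.01 RPKM in clone 1 and 0.0469 RPKM in clone 5.

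**Figure D4:**
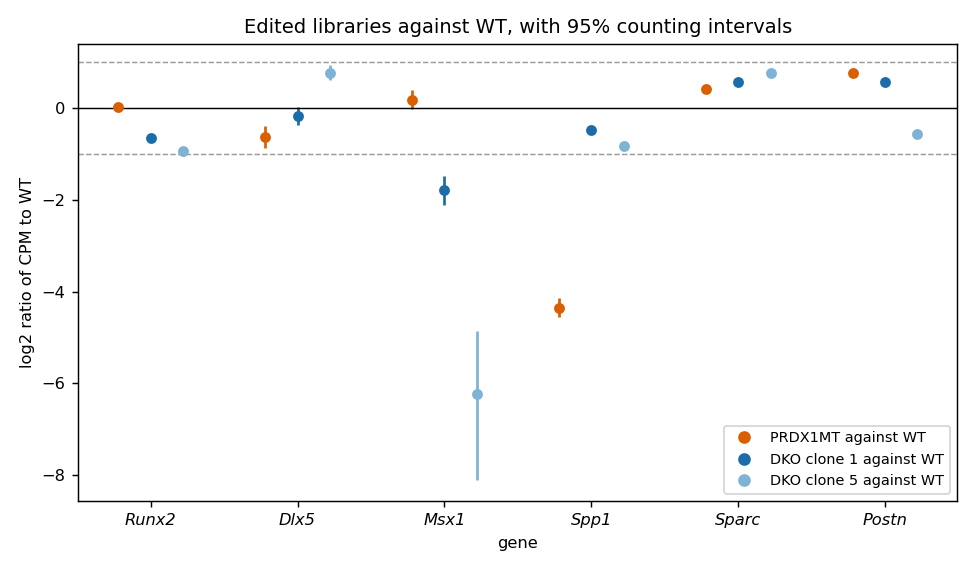
Log2 ratio to WT of each member with enough reads in PRDX1MT, DKO clone 1 and DKO clone 5, with 95% counting intervals and lines at a 2-fold change either way. Spp1 in PRDX1MT and Msx1 in both clones lie below the lower line, and Runx2, Sparc, Postn and Dlx5 lie between the lines.

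Of the 10 members, 7 passed the filter on low counts, and edgeR called 0 of them in DKO against WT and 0 in DKO against PRDX1MT. Over all 19446 genes tested, the share called was 0.468% against WT and 0.206% against PRDX1MT (0.0103% higher, 0.195% lower). Unadjusted p under 0.05 was reached by 1 member (Msx2) against WT, beside 5.08% of all genes, and by 3 (Spp1 higher, Msx1 and Msx2 lower) against PRDX1MT, beside 4.69% of all genes. DESeq2 called 1 member in each, Msx2 against WT and Spp1 against PRDX1MT. These comparisons use the same 2 clones, so they are not independent of each other.

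By the size rule, 6 members had 100 reads or more in each pair. In PRDX1MT against WT 0 of 6 were higher and 1 was lower (Spp1), where 14.8% of 12693 genes passed, 7.25% higher and 7.57% lower. In clone 1 against WT 1 of 6 was lower (Msx1) and 0 higher, beside 16.0% of all genes (8.40% higher, 7.56% lower). In clone 5 against WT the same gene alone was lower, beside 14.3% (5.69% higher, 8.58% lower). Clone 5 against clone 1 had 2 of 6 lower (Msx1 and Postn) and 0 higher, beside 18.4% (7.63% higher, 10.7% lower). In the 3 comparisons with WT the members' share was close to that of all genes. Between the clones it was higher, though it rests on 2 genes. Clone 1 against PRDX1MT had 1 higher (Spp1) and 1 lower (Msx1), beside 15.0% (8.14% higher, 6.85% lower). Clone 5 against PRDX1MT had 2 higher (Spp1 and Dlx5) and 2 lower (Msx1 and Postn), beside 13.8% (5.83% higher, 8.01% lower). That makes 4 of 6 members in a pair of single libraries, with no replicate behind either.

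A further 7 lists, 116 genes in all, placed the members in their pathway, and 102 of these genes were tested. The lists were chosen with earlier results of these data known. Their shares beside those of all genes therefore describe the lists and are no test of the pathway. EdgeR called 0 higher and 1 lower in DKO against WT, where 0.0154% of all genes were called higher and 0.453% lower. The median log2 ratio was 0.21 over the 102 genes and 0.03 over all genes. In DKO against PRDX1MT 0 of 102 were called. An unadjusted p under 0.05 was reached by 19 of 102 against WT (18.6%, with 5.08% of all genes) and by 20 of 102 against PRDX1MT (19.6%, with 4.69% of all genes). In PRDX1MT against WT, 18 of 89 genes with enough reads were higher and 8 lower by the size rule, beside 7.25% and 7.57% of all genes. As shares these were 20.2% and 8.99% of the list genes. With scaling by total counts, which moved all genes down alike, 11 were higher (12.4%) and 12 lower (13.5%), beside 4.29% and 13.7% of all genes.

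**Figure D5:**
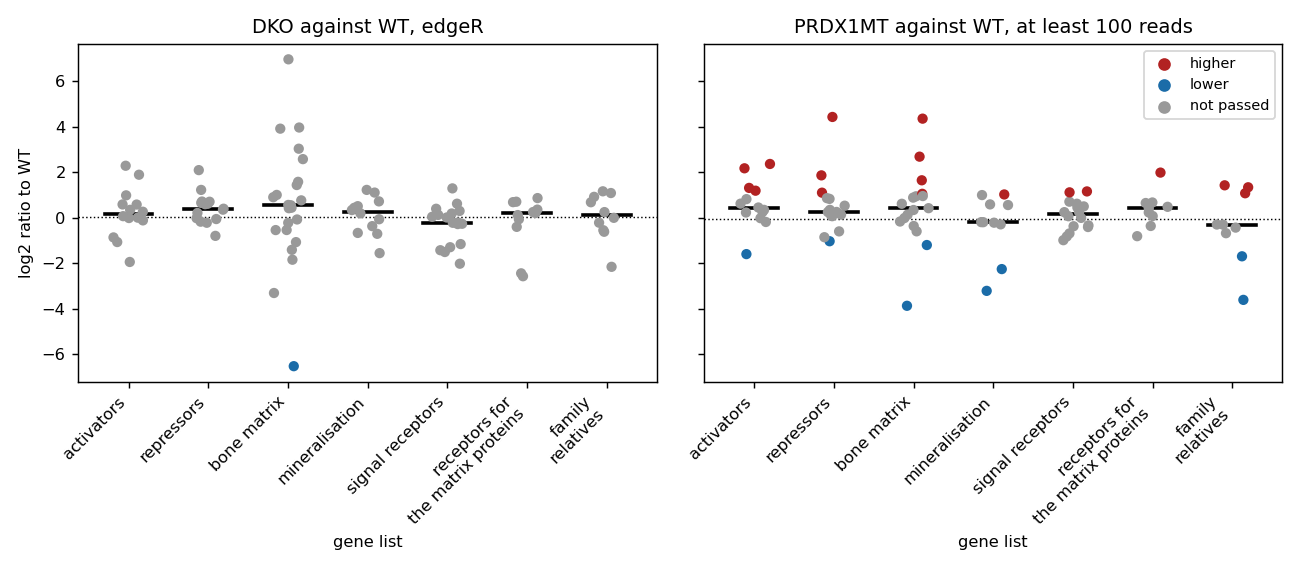
Log2 ratios of the genes of 7 osteogenic lists, as points (red higher, blue lower, grey not passed) with the list median as a bar and the median of all genes as a dotted line, in DKO against WT and in PRDX1MT against WT. The medians lie between -0.30 and 0.55, and Tgfbi is the gene called lower in DKO.

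Of 16 activators of the osteoblast programme, 14 were tested and 0 were called (median log2 ratio of DKO to WT 0.17). Gli2, a Hedgehog effector, had 20.6 CPM in WT, 36.4 CPM in PRDX1MT, and 5.83 and 4.90 CPM in the clones. Both clones were below both other libraries, with an edgeR Benjamini-Hochberg adjusted p of 0.258. Cebpb, a bZIP factor, was at 21.2, 109, 171 and 35.4 CPM in WT, PRDX1MT, clone 1 and clone 5. The AP-1 subunit Junb had 222, 1002, 1338 and 310 CPM in that order, again higher in PRDX1MT and clone 1 than in WT and clone 5.

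Of 16 repressors, 15 were tested and 0 were called (median 0.40). Hey1, a Notch target that restrains Runx2, stood at 2.28, 50.4, 11.6 and 7.88 CPM in WT, PRDX1MT, clone 1 and clone 5, which put PRDX1MT 22.1-fold above WT. Cebpa, a factor of fat cell differentiation, had 16.4, 59.8, 8.16 and 10.8 CPM in the same order, highest in PRDX1MT. Id3, a BMP-induced inhibitor of helix-loop-helix factors, was at 180 CPM in WT and at 327, 393 and 446 CPM in PRDX1MT, clone 1 and clone 5, with no call in DKO.

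Of 26 other bone matrix genes, 23 were tested, with 0 called higher and 1 lower (median 0.55). Tgfbi, a TGF-beta-induced matrix protein related to periostin, had 40.0 CPM in WT, 2.69 CPM in PRDX1MT, and 0.701 and 0.145 CPM in the clones. In DKO it fell by 6.52 on the log2 scale (SE 0.839, edgeR Benjamini-Hochberg adjusted p = 0.0314), and PRDX1MT was 14.9-fold below WT. The proteoglycan Omd (osteomodulin) had 24.7, 16.3, 2.92 and 2.07 CPM (edgeR adjusted p = 0.0598), low in both clones. Dcn (decorin) had the opposite pattern, at 2.84, 2.53, 53.3 and 32.5 CPM (edgeR adjusted p = 0.0601). Thbs1, a matricellular protein, was at 107 CPM in WT and 2194 CPM in PRDX1MT, and at 219 and 422 CPM in the clones. Bglap2, 1 of 3 near-identical osteocalcin copies whose reads the counting may divide, had 1, 13, 237 and 9 reads, nearly all in clone 1, and is named here after its values were seen. Of the other copies, Bglap had 2, 0, 19 and 2 reads, and Bglap3 had 14, 13, 4 and 10 reads, lowest in clone 1.

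Of 14 genes of mineralisation, 12 were tested and 0 were called (median 0.27). Enpp1, which makes pyrophosphate, had 25.1 CPM in WT, 5.23 CPM in PRDX1MT, and 23.4 and 8.24 CPM in the clones. The pyrophosphate transporter Ank had 192, 165, 99.4 and 136 CPM, a narrower range. Phex, an endopeptidase of phosphate balance, had 3.11, 0.281, 0.393 and 1.74 CPM, and the secretory kinase Fam20c 35.5, 72.3, 81.5 and 84.4 CPM.

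Of 18 receptors and signal genes, 17 were tested and 0 were called (median -0.21). Fgfr2, a receptor of skull and limb bone growth, had 94.97, 73.4, 43.0 and 3.92 CPM in WT, PRDX1MT, clone 1 and clone 5, so the clones differed from each other as they did for Msx1. Fgfr3 had 36.1, 20.4, 14.9 and 10.6 CPM, and Tnfrsf11b, the decoy receptor osteoprotegerin, 183, 145, 96.8 and 67.8 CPM, with WT highest for both. Lrp5, a Wnt co-receptor, had 182, 405, 299.6 and 74.3 CPM. Pth1r, the parathyroid hormone receptor, had 2.04, 4.50, 0.336 and 1.34 CPM.

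All 11 receptors for the members' proteins were tested and 0 were called (median 0.21). Integrin Itga9, a partner for osteopontin, had 1.39 CPM in WT, 5.67 CPM in PRDX1MT, and 0.0841 and 0.436 CPM in the clones. Itga8 had 2.28, 3.62, 0.196 and 0.581 CPM, so both chains were lower in the clones than in the other libraries without passing the test. Itgb3, the beta chain of the vitronectin receptor, had 38.8, 22.1, 52.2 and 89.1 CPM.

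Of 15 paralogs of the members, 10 were tested and 0 were called (median 0.12). Dlx2 had 18.8, 50.5, 23.9 and 55.9 CPM in WT, PRDX1MT, clone 1 and clone 5, high in PRDX1MT and clone 5. Smoc2, a Sparc relative, had 56.8, 17.6, 16.3 and 9.22 CPM, with every edited library below WT.

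Markers of other cell types were read beside these values. The summed level of 6 osteocyte markers was 4.35 CPM in WT, 0.844 CPM in PRDX1MT, and 7.99 and 2.69 CPM in the clones. Single genes set it, with Phex at 3.11 CPM of the WT sum and Bglap2 at 6.65 CPM of the clone 1 sum. The sum of 7 chondrocyte markers was 1745, 2117, 676 and 2514 CPM, and that of 7 adipocyte markers 52.7, 78.1, 234 and 49.1 CPM. Col2a1 made up most of the chondrocyte sum in WT, PRDX1MT and clone 5, at 1234, 1643, 163 and 1854 CPM. The cartilage matrix genes Acan and Col9a1 had their highest level in WT. Acan was at 17.1, 0.121, 0.112 and 0 CPM and Col9a1 at 65.8, 25.0, 18.7 and 1.45 CPM. Sox9 (422, 443, 469 and 643 CPM) and Comp (3.28, 3.82, 21.4 and 7.66 CPM) were instead lowest in WT. Col10a1 had 3.43, 2.61, 3.67 and 8.35 CPM, highest in clone 5, and Matn1 had 5, 2, 2 and 1 reads. Lpl gave 172 CPM of the adipocyte sum in clone 1 and lay between 0.726 and 1.60 CPM in the other libraries. Of 8 myeloid and osteoclast markers, which matter because macrophages express Spp1, the sum was between 3.82 and 7.32 CPM. Cd68 had 2.11, 2.85, 4.37 and 2.72 CPM and Csf1r 0.826, 3.42, 1.60 and 2.03 CPM in WT, PRDX1MT, clone 1 and clone 5. Adgre1 and Tyrobp had 0 reads in all libraries. In the same library order, 1, 2, 3 and 2 of the 8 markers reached 1 CPM. The part of the cell type mixture in the members' values was not tested.

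The genes whose profile over the 4 libraries lay closest to a member were found by Euclidean distance between centred log2 CPM values among 11924 protein-coding genes, as a description of 4 points. For Spp1 these were Syt13 (distance 0.480) and Prdx1 itself (0.504), the edited gene of the PRDX1MT line, both low in PRDX1MT. For Runx2 they were Tmem198b (0.0832) and Plekha2 (0.0942), for Dlx5 Jpt2 (0.0208) and Fv1 (0.128), for Sparc Cmtm4 (0.0459) and Polr2f (0.0619), and for Postn Rbm38 (0.0615) and Tgfb3 (0.109). The distances for Spp1 were larger than those of the other 4 members with 1000 reads or more, and those with fewer reads were not run.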

How the data were processed

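The authors deposited 1 table of gene counts per library, with Ensembl IDs. Per the submitters' processing notes, STAR 2.6.1d and mm10 were used. Which program counted reads, and with which strand setting, is not given in the sources used here. Per the labels' protocols the kit was stranded, and reads of overlapping genes on opposite strands cannot be told apart here. GENCODE M21 names were matched to 54495 of 54532 IDs. The deposited counts were tested with edgeR 4.0.16 in R 4.3.3 (TMM, filterByExpr, quasi-likelihood; 3 groups fitted together, 1 residual degree of freedom, 19446 genes, Benjamini-Hochberg at 0.05), with DESeq2 1.42.0 as an alternative. Fold ratios of single libraries and their intervals were taken from scaled counts with no prior. The 2-fold limit of the size rule was applied to log2 ratios with a prior of 2 counts, which lie closer to no change at low counts. The floor of 3 counts and the 95% intervals cover counting error only, since PCR copies were not marked by molecular identifiers. Scripts were checked on simulated data. The 10 members and all lists were chosen with earlier results of these data known. Named beyond the members were up to 3 genes per list with the smallest p in DKO against WT, up to 2 with the largest size-rule ratio in PRDX1MT, any called gene, and the nearest neighbours and profiles.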

Additional observations from a re-analysis of the deposited data

How the results depend on the processing

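No paired analysis was possible because WT and PRDX1MT have 1 library each, numbered only in accession order, and the DKO numbers are clone names. In DKO against WT edgeR called 91 genes (3 higher, 88 lower). The count was 262 (56 higher, 206 lower) with DESeq2, 535 (130 and 405) without the filter, and 0 with a filter of 1 CPM (490 at an unadjusted p under 0.05). In DKO against PRDX1MT it was 40 (2 higher, 38 lower), and 215 (61 and 154) with DESeq2, 404 (137 and 267) without the filter, 0 with 1 CPM (530 unadjusted), 7 with scaling by total counts, 11 with the 2 groups alone, and 21 to 92 when a clone was left out. The fits that leave out a clone join WT and PRDX1MT as 1 group to keep a spread, and the lone clone is assumed to vary as they do. These joined fits are the same for both comparisons, so only their ratios are given. Genes past the size rule numbered 1881 in PRDX1MT, 2065 in clone 1, 1802 in clone 5 and 2261 between the clones. These became 3613, 3822, 3181 and 3777 at a minimum of 20 reads, and 397, 611, 491 and 527 at a log2 ratio of 2. Without the filter edgeR called Msx1 (adjusted p 0.00468 against WT and 0.00236 against PRDX1MT), Msx2 (2.07e-05 and 0.00125) and Spp1 against PRDX1MT (1.3e-06), so the calls on these members depend on the filter. In the joined fits the reference is WT and PRDX1MT together, so ratios differ from the main fit in the reference as well as in the clone. There the Spp1 ratio was 0.10 without clone 1 and 0.47 without clone 5, with the low PRDX1MT library in the reference. The Postn ratio to the joined reference was -1.0005 without clone 1 and 0.17 without clone 5. In the main fit it was 0.12 to WT and -0.64 to PRDX1MT. Scaling by total counts moved the median log2 ratio of all genes from -0.04 to -0.31 in PRDX1MT and from -0.03 to -0.17 in clone 5 and split the PRDX1MT calls into 544 higher and 1734 lower, from 920 and 961, and those of clone 5 into 547 and 1356, from 719 and 1083. Under it Runx2 and Msx1 in PRDX1MT were at -0.24 and -0.09, and Runx2 in clone 5 passed the size rule at -1.08. The Msx1 ratio in clone 1 and the Postn ratio between clones did not pass a log2 ratio of 2. The main fit against PRDX1MT had a Spp1 ratio of 3.70, beside those same 0.10 and 0.47 in the joined fits. Its Dlx5 ratio was 1.00, beside 0.12 to the joined reference without clone 5. Some alternatives, such as a lower minimum of reads, cannot move a member's ratio. The cause of the other changes was not tested.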

Other observations

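The nearest protein-coding neighbours of the members were read as values. Cytl1, a secreted cytokine-like gene and the neighbour of Msx1 at a gap of 80.7 kb, had 1478 reads in WT, 25 in PRDX1MT, 1 in clone 1 and 0 in clone 5. It was among the genes called lower in DKO against WT (edgeR Benjamini-Hochberg adjusted p = 0.0109). Stx18, 214 kb away on the other side of Msx1, stood at 16.5, 13.7, 14.9 and 12.7 CPM in WT, PRDX1MT, clone 1 and clone 5, a narrow range. Dlx6, which lies 9.24 kb from Dlx5 in a homeobox pair, had 24, 8, 7 and 10 reads. Ece1, the neighbour of Alpl, had 79.9, 181, 96.1 and 275 CPM beside an Alpl that stayed near the floor in all 4 libraries.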
